A study of Mus musculus with 12 samples.

Results

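The unfolded protein response and the integrated stress response were followed through 31 genes in total colon RNA of mice with and without dextran sulfate sodium (DSS) colitis. The members were the rows of the deposited gene table that carry 31 given gene names, out of 54532 genes in all, and were kept in 4 roles: 5 sensors and transcription factors, 13 chaperones and folding enzymes of the endoplasmic reticulum (ER), 7 genes of ER-associated degradation (ERAD) and 6 targets of the transcription factor ATF4. The name Ddit3 stands on 2 rows, of which the one lying inside the other had 0 counts in every library, so the row with counts was used. All 31 members passed the filter on low values and were among the 24102 genes tested. Each of 4 groups had 3 libraries of polyA RNA from whole colon of C57BL/6N mice aged 6 to 8 weeks. Tmem173fl/fl mice carry a floxed gene of STING, the adaptor that signals cytosolic DNA, and no Cre. Tmem173iΔmye litter-mates also carry a tamoxifen-inducible Cre under Lyz2, which is active in macrophages, monocytes and neutrophils, and a colon holds many other cells. Mice of both genotypes had 5 tamoxifen injections. The untreated groups drank water, and the colitic groups drank DSS, a polymer toxic to the colon lining, at 2.5% to 3% over 7 days, and water on the day after (1 day).

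Proteins that enter the secretory route fold in the ER. When unfolded protein accumulates there, the membrane sensors ATF6, IRE1 (gene Ern1) and PERK (gene Eif2ak3) respond: ATF6 is cut to a transcription factor, IRE1 splices Xbp1 mRNA, and both raise chaperones and degradation genes. PERK phosphorylates eIF2α, which lowers translation but favours that of ATF4, and ATF4 then raises genes of amino acid supply, redox balance and cell death. Phosphorylated eIF2α and ATF4 form the integrated stress response (ISR), which other kinases also reach, without ER stress. In the colon the secretory load is high in goblet cells, which make mucin, and in plasma cells, which make IgA. The deposited values are mRNA levels, so cleavage of ATF6, splicing of Xbp1, phosphorylation and translation of ATF4 were not measured.

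Library totals ran from 13823237 to 18718915 counts. Levels are given as CPM (counts scaled to a common library size, by TMM), and levels of different genes are set side by side only as deposited FPKM, which divide by gene length. Tmem173 itself did not pass the test between genotypes. Its log2 fold change was -0.28 ± 0.26 (SE) in colitis (adjusted p = 0.602 by edgeR) and -0.21 ± 0.22 without DSS (adjusted p = 1 by edgeR). Lyz2 was not called either, at -0.54 ± 0.25 in colitis (adjusted p = 0.266 by edgeR) and -1.01 ± 0.23 without DSS. Without DSS it was at 150, 152 and 277 CPM in Tmem173fl/fl and 94.4, 76.4 and 115 CPM in Tmem173iΔmye libraries, with no overlap. As neither gene was called, the genotype groups rest on their labels. Epithelial markers were high in every library, with a summed level of 2575 to 8188 FPKM for 9 genes. Pancreatic acinar enzymes, which a colon does not make, summed to over 1000 FPKM for 17 genes in 5 libraries: replicate 3 of untreated Tmem173fl/fl, replicate 2 of untreated Tmem173iΔmye, replicates 1 and 2 of colitic Tmem173fl/fl and replicate 1 of colitic Tmem173iΔmye. They were at 7.75 to 627 FPKM in the other 7. Acinar cells are rich in ER chaperones, so the number of members called in each comparison was also computed without those 5 libraries. In whole tissue, fewer cells of a type and less RNA per cell cannot be told apart.

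The promoters show which members carry the letters through which the pathway is known to act. RefSeq promoter windows (GRCm38.p6, 250 bases before to 50 after the transcription start) were found for 27 of the 31 members, with no entry for Atf6, Hyou1, Manf and Derl1. The ER stress response element, bound by ATF6 and XBP1 together with NF-Y, was searched on both strands as CCAAT and CCACG separated by 9 bases. It was present in 9 of 27 members (33.3%), against 37 of 27025 genes with a window (0.137%). The carriers were 7 chaperones, Hspa5, Hsp90b1, Dnajc3, Pdia6, Calr, Canx and Creld2, and 2 degradation genes, Syvn1 and Derl3. Hsp90b1 had 2 matches. The following stretches show the element, with its CCAAT and CCACG blocks in capitals, in 6 carriers that fell in colitis, in Derl3, which rose, and in Creld2 and Syvn1, which were not called. Each is read 5′ to 3′ on the strand that carries the motif.
Hspa5, chr2:34772014-34772054, + strand: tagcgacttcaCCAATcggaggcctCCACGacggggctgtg
Hsp90b1, chr10:86705522-86705562, + strand: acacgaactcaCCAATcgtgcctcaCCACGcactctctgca
Hsp90b1, chr10:86705627-86705667, - strand: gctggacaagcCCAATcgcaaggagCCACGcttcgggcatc
Dnajc3, chr14:118937816-118937856, + strand: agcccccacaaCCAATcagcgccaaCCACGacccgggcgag
Pdia6, chr12:17266480-17266520, + strand: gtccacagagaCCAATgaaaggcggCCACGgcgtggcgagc
Calr, chr8:84847064-84847104, + strand: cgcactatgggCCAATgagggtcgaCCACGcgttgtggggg
Canx, chr11:50325789-50325829, - strand: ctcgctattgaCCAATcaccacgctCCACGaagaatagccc
Derl3, chr10:75893231-75893271, - strand: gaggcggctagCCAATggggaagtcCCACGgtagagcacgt
Creld2, chr15:88819509-88819549, - strand: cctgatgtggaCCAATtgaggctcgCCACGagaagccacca
Syvn1, chr19:6046521-6046561, + strand: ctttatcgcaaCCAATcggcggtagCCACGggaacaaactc

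A second form of the element, ATTGG and CCACG with 1 base between them, was found in Herpud1 alone among the members and in 0.0444% of genes. The UPR element core TGACGTGG was in 0 of 27 members and 0.714% of genes. The C/EBP-ATF response element, through which ATF4 acts, was searched as TGATGNAA and was found in 4 of 27 members (14.8%), against 4.51% of genes: the ATF4 targets Asns, Chac1 and Trib3, and Herpud1. In Trib3 it lay 15 to 22 bases past the start. The matches that lie before the start of the ATF4 targets are shown with the fixed letters in capitals, and Herpud1, with both kinds of element, is shown last.
Asns, chr6:7693214-7693243, - strand: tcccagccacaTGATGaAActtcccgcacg
Chac1, chr2:119351038-119351067, - strand: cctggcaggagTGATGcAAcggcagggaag
Herpud1, chr8:94386306-94386335, - strand: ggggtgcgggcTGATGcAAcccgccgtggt
Herpud1, chr8:94386366-94386398, + strand: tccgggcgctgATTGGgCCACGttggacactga
A match is a stretch of letters and not a measured binding site. The members were named as genes of these responses, so shares of matches above the background are no result of these data.

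**Figure D1:**
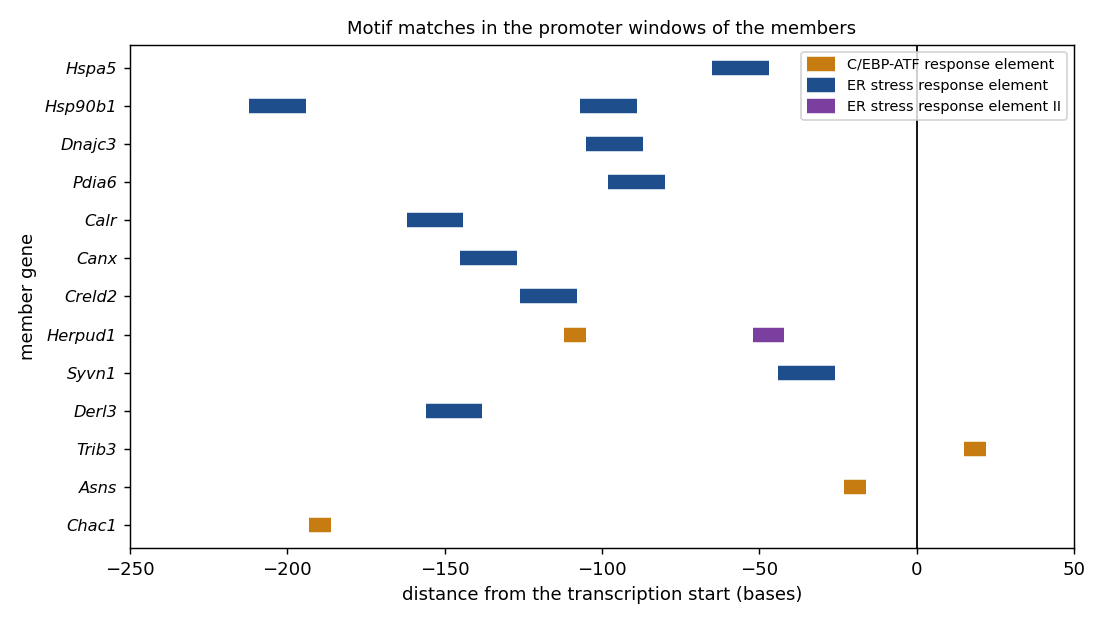
Places of the motif matches in the promoter windows of 13 members; the horizontal axis is the distance in bases from the RefSeq transcription start (0, vertical line), and the bars are matches coloured by motif. The ER stress response element lies before the start in all 9 carriers, from 212 bases before it in Hsp90b1 to 26 bases before it in Syvn1, while the Trib3 match lies after it.

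In untreated Tmem173fl/fl colon the 5 most abundant members were chaperones, and the other 8 chaperones lay below Xbp1. On the FPKM scale Pdia3, a disulfide isomerase that works on glycoproteins, was highest at 339 ± 35.7 (SD, n = 3), followed by Calr (calreticulin, a lectin chaperone) at 290 ± 32.5, and the libraries of these 2 overlapped. Hspa5, the ER chaperone BiP that holds the sensors inactive, was at 171 ± 14.7 and Hsp90b1, the ER form of Hsp90, at 143 ± 19.3 FPKM. Canx (calnexin) was at 96.7 ± 10.9 FPKM, and of the factors Xbp1 led at 80.3 ± 2.93 and Atf4 followed at 49.1 ± 17.3 FPKM. The ATF4 targets were at 10.9 FPKM or less, a range they shared with Atf6, Eif2ak3, Derl2 and Derl3. Asns, which makes asparagine, was at 10.9 ± 1.31, Ppp1r15a at 3.88 ± 0.239, Chac1 at 0.823 ± 0.206 and Trib3 at 0.287 ± 0.0987 FPKM.

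DSS colitis without Cre, the comparison of colitic with untreated Tmem173fl/fl mice, gave falls among the chaperones and rises among the ATF4 targets. Of the 31 members, 15 (48.4%) were called at an edgeR adjusted p under 0.05, against 35.4% of all genes tested. Higher calls numbered 6 (19.4%) against 19.5% of all genes, and lower calls 9 (29%) against 16%. The chaperones gave all 9 falls and no rise, with a median log2 fold change of -0.50 over 13 genes. The number of falls was 4 with library totals alone or without untreated replicate 3, and 5 without untreated replicate 1, colitic replicate 1 or colitic replicate 3. The ATF4 targets gave 4 of the 6 rises and no fall, with a median of 0.89 over 6 genes. The sensors had a median of 0.18 with 1 rise, and the degradation genes a median of -0.10 with 1 rise. The median over all genes tested was 0.03. The libraries of the 2 groups did not overlap for 6 members that were higher and 11 that were lower, against 23.9% and 25.4% of all genes.

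**Figure D2:**
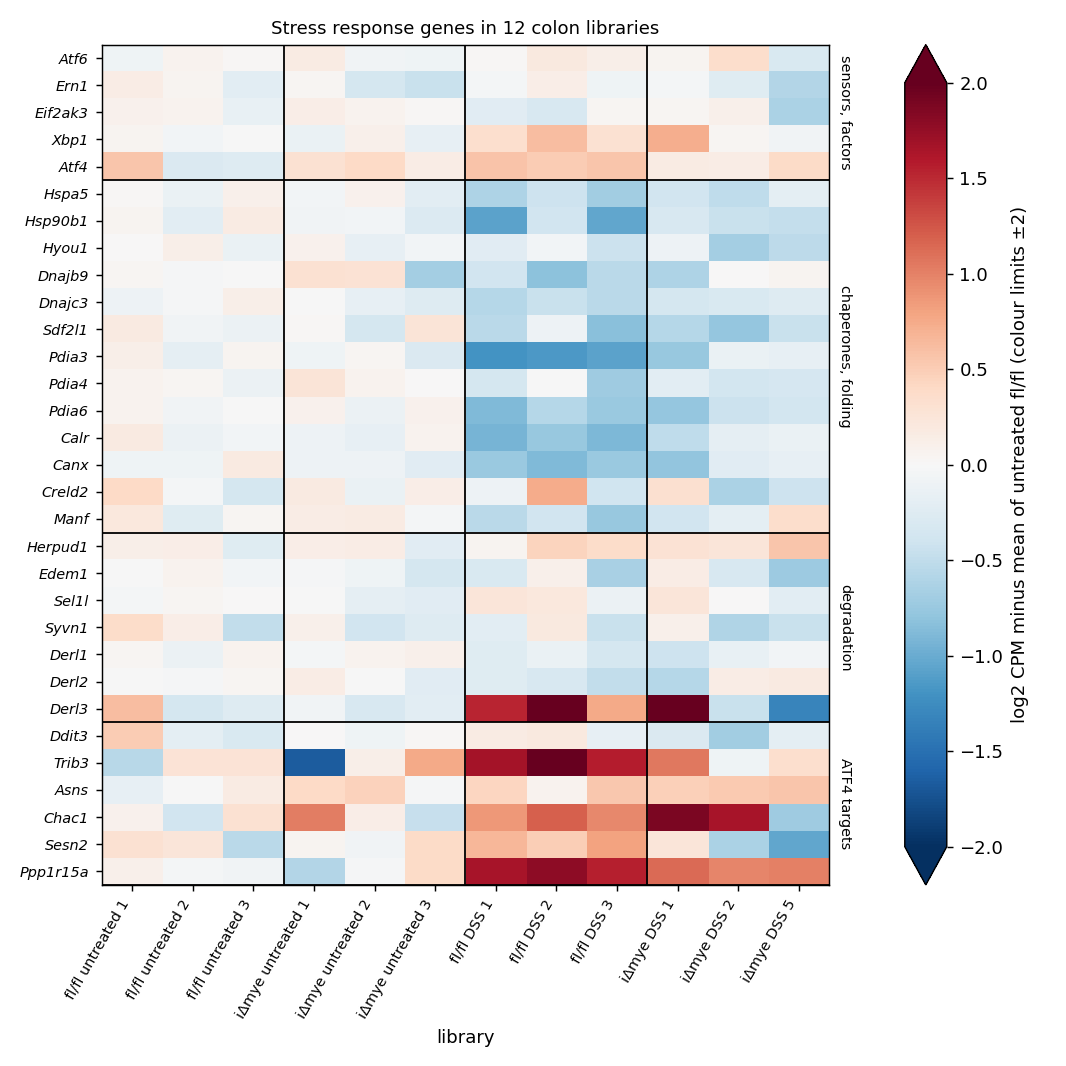
Level of the 31 members in each of the 12 libraries, as the difference in log2(CPM + 0.1) from the mean of the 3 untreated Tmem173fl/fl libraries; rows are genes by role, columns are libraries by group, and the colours stop at 2 in either direction. Most chaperone cells are blue in the colitic Tmem173fl/fl libraries, where the median over the 13 genes ran from -0.74 to -0.42, with Creld2 red in replicate 2, and most ATF4 target cells are red there, with Ddit3 slightly blue in replicate 3.

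Among the chaperones Pdia3 (ENSMUSG00000027248, GRCm38 chr2:121413775-121438687, + strand) fell most. It was at 1183, 963 and 1130 CPM in the untreated and 475, 490 and 519 CPM in the colitic libraries. The 2 groups were far apart, at a fold of 0.475 and a log2 fold change of -1.07 ± 0.15 (SE; adjusted p = 0.000401 by edgeR). Calr (ENSMUSG00000003814, chr8:84841850-84846934, - strand) was at 967, 781 and 818 CPM without and 448, 503 and 459 CPM with colitis. That is a log2 fold change of -0.80 ± 0.15 (adjusted p = 0.00244 by edgeR), with every colitic library below every untreated one. Canx, the membrane-bound partner of calreticulin in the same glycoprotein folding cycle, was at 436, 437 and 523 CPM without and 276, 250.2 and 277 CPM with colitis, again with no overlap, and fell by 0.73 ± 0.15 on the log2 scale (adjusted p = 0.00351 by edgeR). So Pdia3, Calr and Canx, which act as one cycle on glycoproteins, all fell.

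BiP itself also fell. Hspa5 (ENSMUSG00000026864, chr2:34771970-34777547, + strand) was at 752, 673 and 794 CPM in untreated and 481, 551 and 454 CPM in colitic libraries. These groups did not overlap, with a log2 fold change of -0.51 ± 0.15 (adjusted p = 0.0251 by edgeR). Hsp90b1 was at 607, 505 and 659 CPM against 279, 451 and 287 CPM. It fell by 0.73 ± 0.21 (adjusted p = 0.0229 by edgeR), with replicate 2 of the colitic mice nearest to the untreated level. Up to 10.3% of the exon bases of Hsp90b1 are shared with 1810014B01Rik on the other strand, and whether counting used strand is not given in the sources used here. Pdia6, a further disulfide isomerase, was at 249, 224 and 236 against 128, 159 and 141 CPM and fell by 0.66 ± 0.14 (adjusted p = 0.00509 by edgeR). Its groups stood well apart.

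The other falls were those of 2 co-chaperones of BiP and of Manf, a secreted ER stress protein. Dnajb9 was at 51.5, 49.0 and 49.7 CPM without and 38.5, 28.4 and 34.5 CPM with colitis (log2 fold change -0.50 ± 0.14, adjusted p = 0.0213 by edgeR). Dnajc3, which also restrains PERK, was at 206, 218 and 239 against 148, 163 and 153 CPM (-0.45 ± 0.14, adjusted p = 0.0274 by edgeR). Manf was at 98.2, 71.9 and 87.6 against 58.8, 65.1 and 50.3 CPM (-0.50 ± 0.16, adjusted p = 0.0341 by edgeR). None of these 3 overlapped between the groups. The other 4 chaperones did not pass: Sdf2l1 (log2 fold change -0.40), Pdia4 (-0.26), Hyou1 (-0.16) and Creld2 (0.21), with edgeR adjusted p from 0.153 to 0.623 and overlapping libraries. Creld2 varied between the colitic libraries, at 39.8, 71.6 and 32.5 CPM.

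The sensors changed little at the mRNA level. Atf6 (log2 fold change 0.18), Ern1 (0.07) and Eif2ak3 (-0.10) did not pass the test, and their 95% intervals of -0.10 to 0.46, -0.24 to 0.39 and -0.40 to 0.21 bound the change that these libraries allow. Xbp1 (ENSMUSG00000020484, chr11:5520659-5525893, + strand) rose from 278, 258 and 266 CPM to 339, 409 and 331 CPM, a log2 fold change of 0.50 ± 0.15 (adjusted p = 0.0237 by edgeR) with no overlap. Atf4 was at 168, 93.6 and 95.3 CPM without and 170, 163 and 168 CPM with colitis. Its replicate 1 without DSS was already at the colitic level, so the groups overlapped, and the log2 fold change of 0.56 ± 0.22 did not pass (adjusted p = 0.0715 by edgeR). Without that replicate it was 0.89 (adjusted p = 0.00198 by edgeR), and Atf4 was also called with library totals alone, with no filter and with the replicate block.

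ERAD retrieves misfolded proteins from the ER and passes them to the proteasome. Among its 7 members Derl3, a derlin of the retrieval channel that is typical of secretory cells such as plasma cells, was the only one called. It was at 10.5, 5.35 and 5.70 CPM in untreated and 19.9, 57.3 and 11.6 CPM in colitic libraries. The colitic values spread widely around a log2 fold change of 2.12 ± 0.53 (adjusted p = 0.0108 by edgeR), although the lowest of them was above every untreated library. Its paralogs did not pass, with Derl1 at -0.17 and Derl2 at -0.28, nor did the core of the ubiquitin ligase, Sel1l (0.19) and Syvn1 (-0.10), the mannosidase-like Edem1 (-0.18) or Herpud1 (0.36), a membrane component of the complex. The colitic libraries of Derl1 and Derl2 lay below the untreated ones without passing the test.

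Of the 6 ATF4 targets 4 rose. The number was 2 without untreated replicate 2, without colitic replicate 1, with the replicate block or in one fit of all libraries. Ppp1r15a (GADD34, ENSMUSG00000040435, chr7:45522916-45526268, - strand), which brings a phosphatase to eIF2α and so ends the response, was at 12.6, 11.4 and 11.1 CPM in untreated and 36.8, 40.8 and 34.5 CPM in colitic libraries. The groups were tight and far apart, with a fold of 3.35 and a log2 fold change of 1.74 ± 0.15 (adjusted p = 2.23e-05 by edgeR), the lowest adjusted p of all members. Trib3, a pseudokinase induced by ATF4 and CHOP, was at 0.379, 0.745 and 0.752 CPM against 2.11, 4.12 and 1.97 CPM. Its log2 fold change of 2.18 ± 0.45 (adjusted p = 0.00412 by edgeR) was the largest of all members and rests on low levels. Chac1, which breaks down glutathione, was at 1.44, 1.02 and 1.69 against 2.55, 3.22 and 2.72 CPM (1.10 ± 0.33, adjusted p = 0.0274 by edgeR). Sesn2, a stress-induced brake on mTORC1, was at 18.8, 18.01 and 10.4 against 24.2, 21.5 and 26.6 CPM (0.69 ± 0.22, adjusted p = 0.0373 by edgeR). All 4 were free of overlap between the groups.

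The remaining ATF4 targets were not called. Asns was at 27.2, 30.1 and 34.2 CPM without and 41.1, 31.8 and 44.0 CPM with colitis, with overlap (log2 fold change 0.42 ± 0.17, adjusted p = 0.0743 by edgeR). Ddit3 (CHOP), the factor that carries chronic ER stress towards cell death, was at 19.996, 12.3 and 11.3 against 15.7, 16.0 and 12.5 CPM. Its log2 fold change was 0.10 with a 95% interval of -0.44 to 0.63.

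**Figure D3:**
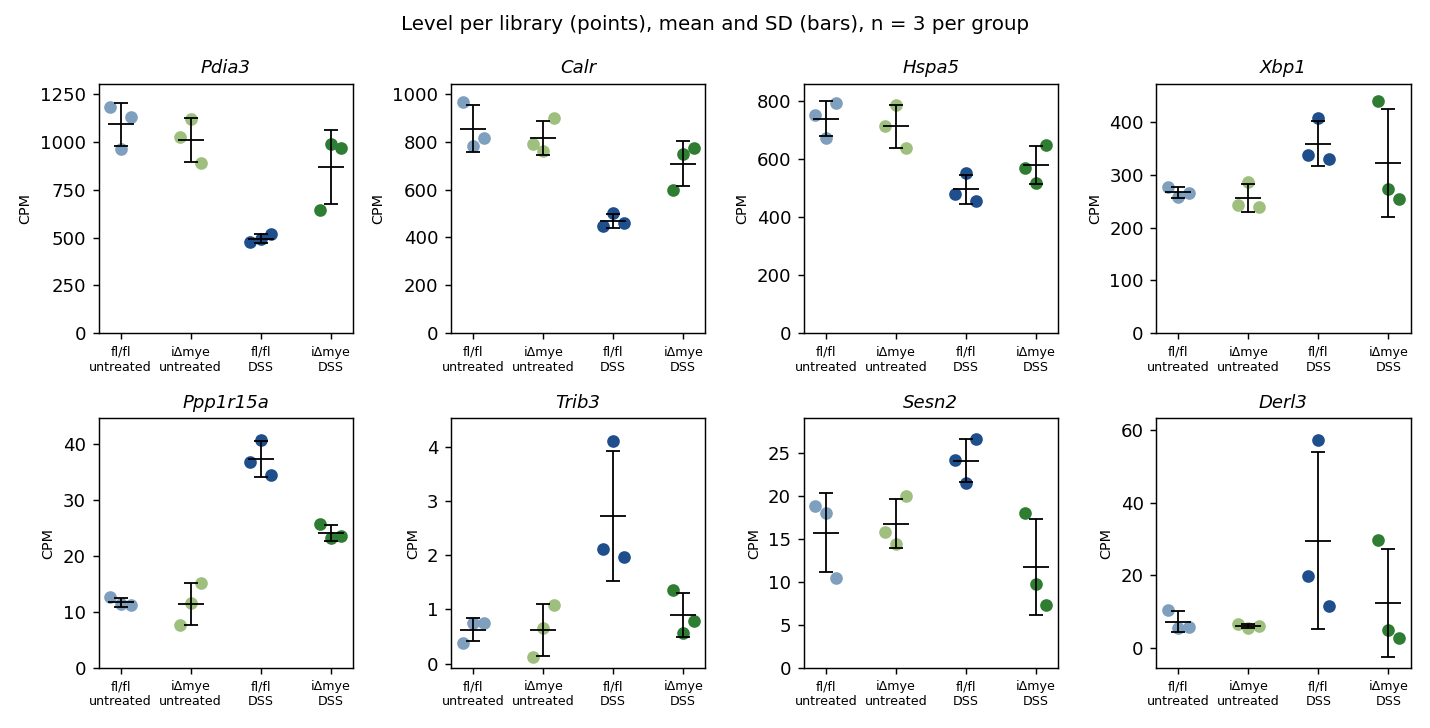
Level in CPM of 8 members in each of the 4 groups; points are libraries, and the bars give the mean and SD over 3 libraries. Pdia3, Calr and Hspa5 are lower and Xbp1, Ppp1r15a, Trib3, Sesn2 and Derl3 higher in colitic than in untreated Tmem173fl/fl libraries, and the Derl3 and Xbp1 values of colitic Tmem173iΔmye mice are set apart by replicate 1, at 29.6 and 440.2 CPM.

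The calls differed in how many alternatives kept them. Pdia3 and Ppp1r15a were called under all 16 alternatives, Pdia6 and Calr under all but an added fold threshold (absolute log2 fold change of at least 1, which 5 members and 22.5% of all genes passed), and Canx under all but that threshold and leaving out the libraries with acinar enzymes. Trib3 lost its call only without those libraries, at a log2 fold change of 1.87. The other 9 calls were each lost in 4 to 10 alternatives. Without untreated replicate 3 or without colitic replicate 1, 8 of 31 members were left. That share is below the 29.8% and 27.4% of all genes called in those fits. Leaving out the libraries with acinar enzymes left 2 untreated libraries against 1 colitic one, whose spread is then assumed to be that of the untreated pair, and 21% of all genes called. Of the 15 calls 6 were kept there, those of Pdia3, Calr, Pdia6, Hsp90b1, Manf and Ppp1r15a, and 9 were lost. The log2 fold changes of the lost ones were close to those of all libraries for Hspa5 (-0.57), Dnajb9 (-0.46), Dnajc3 (-0.39), Chac1 (1.23) and Sesn2 (0.61), smaller for Canx (-0.58) and Xbp1 (0.38), and 0.63 against 2.12 for Derl3. Sdf2l1 (-0.82), Pdia4 (-0.70), Syvn1 (-0.62) and Asns (0.70), not called with all libraries, had larger changes there. With 1 colitic library, kept and lost calls cannot tell a smaller change from fewer libraries, and no conclusion is drawn from them.

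Members with the ER stress response element were mostly among the falls. Of the 9 carriers shown above, 6 fell, 1 rose and 2 were not called, with a median log2 fold change of -0.51, beside 16% lower and 19.5% higher calls among all genes. Of the 18 members with a window and no such match, 2 fell, 5 rose and 11 were not called, with a median of 0.14. These counts describe the members only, since 7 of the 9 carriers are chaperones.

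Cell type markers moved in the same comparison. Of 9 epithelial markers 7 fell and of 10 goblet cell markers 7 fell, and none rose. The goblet cell list holds no member, but Agr2, Ern2 and Creb3l1 on it all fell and are also ER stress regulators in the lists below. The epithelial markers summed to 6193 to 7694 FPKM in untreated and 2575 to 4489 FPKM in colitic Tmem173fl/fl libraries, and the goblet cell markers to 5169 to 7693 and 2005 to 3764 FPKM. The 13 chaperones summed to 1212 to 1411 and 764 to 900 FPKM in the same libraries. All 10 neutrophil markers rose, from a sum of 44.8 to 106 to one of 575 to 949 FPKM, as did 10 of 10 macrophage markers (256 to 383 and 739 to 991 FPKM) and 9 of 9 fibroblast markers (184 to 209 and 1153 to 1458 FPKM). The 6 ATF4 targets summed to 26.7 to 31.4 and 45.3 to 46.7 FPKM. The part of these cell types in the members' changes was not tested.

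Of 10 plasma cell markers 7 rose, and Derl3 and Xbp1 are on that list. Without these 2, the 8 plasma cell markers summed to 4587, 3084 and 3582 FPKM in untreated and 6126, 12684 and 3384 FPKM in colitic Tmem173fl/fl libraries, and the library with 12684 FPKM was also the highest of these 6 in Derl3, Xbp1 and Creld2. In colitic Tmem173iΔmye mice the sums were 9480, 1587 and 1061 FPKM for replicates 1, 2 and 5. Derl3 followed the same order there, at 29.6, 4.98 and 2.67 CPM, and so did Xbp1, at 440.2, 273 and 255 CPM. Acinar enzymes were also highest in replicate 1, at 11624 FPKM, against 103 and 7.75 FPKM. The part of plasma cells and of acinar RNA in these values was not tested.

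**Figure D4:**
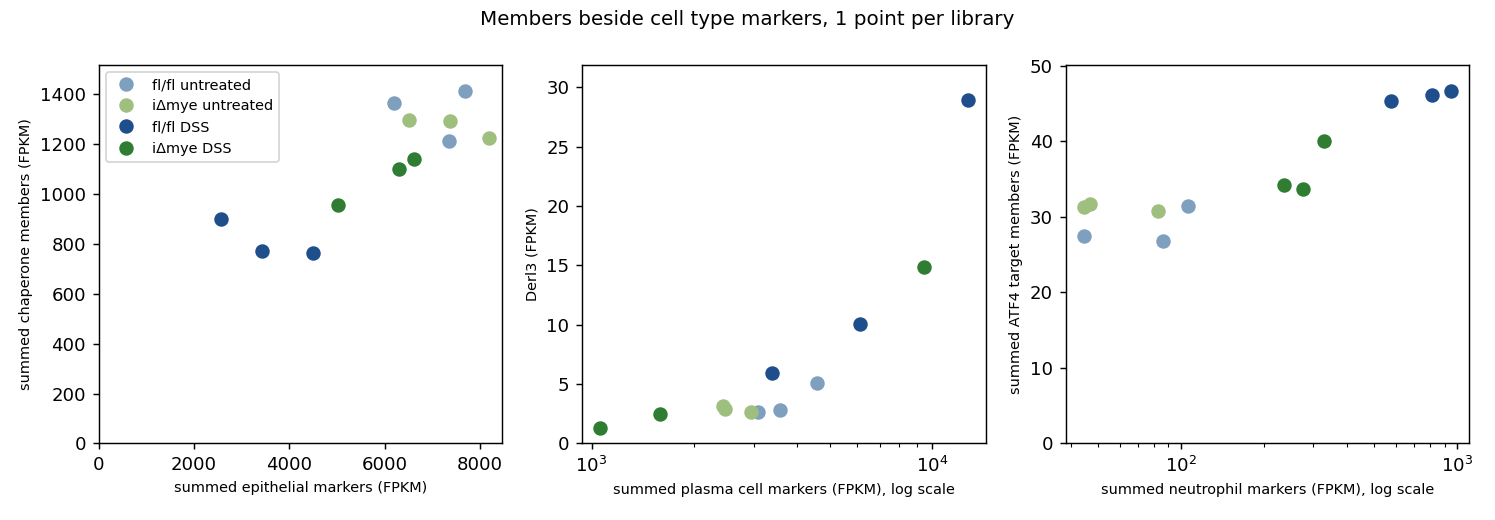
Summed FPKM of the 13 chaperones against 9 epithelial markers (left), FPKM of Derl3 against 8 plasma cell markers (middle) and summed FPKM of the 6 ATF4 targets against 10 neutrophil markers (right); each point is 1 of 12 libraries coloured by group, and the middle and right horizontal axes are on a log scale. Colitic Tmem173fl/fl libraries have the lowest chaperone sums and the highest ATF4 target sums, and the point with the highest plasma cell sum has the highest Derl3.

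In mice with the inducible Cre no member was called for DSS. In the comparison of colitic with untreated Tmem173iΔmye mice edgeR called 0 of 31 members, against 2.17% of all genes. At an unadjusted p under 0.05 were 4 members, beside 3749 of 24102 genes. DESeq2 called 1 member, against 6.04% of all genes, and limma 0. All 13 chaperones had a negative log2 fold change, with a median of -0.25 and values from -0.59 (Sdf2l1) to -0.13 (Manf), and the median of all genes was 0.02. The lowest unadjusted p among chaperones was that of Pdia6, at 251, 218 and 250.3 CPM without and 137, 176 and 183 CPM with colitis (-0.54 ± 0.20, adjusted p = 0.217 by edgeR), which did not overlap. Pdia3 was at 1027, 1119 and 890 CPM against 645, 990 and 970 CPM. Only replicate 1 stood low there (-0.22 ± 0.22, adjusted p = 0.693 by edgeR).

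Ppp1r15a was the member nearest to a call in these mice. It was at 7.71, 11.498 and 15.2 CPM in untreated and 25.7, 23.1 and 23.6 CPM in colitic Tmem173iΔmye libraries, with no overlap. The log2 fold change was 1.07 ± 0.27 (adjusted p = 0.0827 by edgeR and 0.00855 by DESeq2). Chac1 split within the colitic group, at 5.27, 4.48 and 0.789 CPM, so that its log2 fold change of 0.98 carried an SE of 0.65. Sesn2 was at 15.8, 14.4 and 19.96 against 18.03, 9.77 and 7.35 CPM, and Trib3 at 0.121, 0.659 and 1.08 against 1.35, 0.560 and 0.789 CPM. Both overlapped (log2 fold change -0.52 ± 0.34 for Sesn2 and 0.52 ± 0.72 for Trib3).

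Without DSS the genotypes did not differ detectably in any member. edgeR called 0 of 31 members and 0% of all genes, with 0 members at an unadjusted p under 0.05, beside 720 of 24102 genes. DESeq2 and limma called 0 members too. The log2 fold changes ran from -0.26 (Derl3) to 0.36 (Chac1). The intervals were narrow for abundant members, such as -0.35 to 0.25 for Hspa5 and -0.41 to 0.21 for Pdia3, and wide for low ones, such as -1.47 to 1.45 for Trib3.

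In colitis no member passed the main test between genotypes, and the lowest p-values were those of Pdia3, Calr and 3 ATF4 targets. Comparing colitic Tmem173iΔmye with colitic Tmem173fl/fl mice, edgeR called 0 of 31 members against 3.11% of all genes. At an unadjusted p under 0.05 were 5 members, a lower share than the 4869 of 24102 genes tested. limma called 0. DESeq2, which called 9.87% of all genes, called 5 members: Pdia3 and Calr higher, Ppp1r15a, Trib3 and Sesn2 lower. Since this comparison shares the colitic Tmem173fl/fl libraries with the DSS comparison of that genotype, the 2 are not independent. Pdia3 was at 475, 490 and 519 CPM without Cre and 645, 990 and 970 CPM in Tmem173iΔmye libraries. All of the latter were higher (log2 fold change 0.80 ± 0.22, adjusted p = 0.0935 by edgeR and 0.00659 by DESeq2). Calr was at 448, 503 and 459 against 600.5, 751 and 773 CPM, also without overlap (0.58 ± 0.20, adjusted p = 0.147 by edgeR and 0.0192 by DESeq2). Dnajc3 (0.21) and Manf (0.50) were the other members with every Tmem173iΔmye library higher.

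On the ATF4 side every Tmem173iΔmye library was lower for Atf4 and 4 of its targets, none of which edgeR called. Ppp1r15a was at 36.8, 40.8 and 34.5 CPM without Cre and 25.7, 23.1 and 23.6 CPM in Tmem173iΔmye libraries (-0.64 ± 0.18, adjusted p = 0.0895 by edgeR and 0.0251 by DESeq2). Sesn2 was at 24.2, 21.5 and 26.6 against 18.03, 9.77 and 7.35 CPM (-1.04 ± 0.33, adjusted p = 0.131 by edgeR and 0.0410 by DESeq2). Trib3 was at 2.11, 4.12 and 1.97 against 1.35, 0.560 and 0.789 CPM (-1.61 ± 0.49, adjusted p = 0.115 by edgeR and 0.0352 by DESeq2). Atf4 (-0.32) and Ddit3 (-0.45) had smaller differences. In all, 4 of 31 members were higher and 5 lower without overlap, against 12% and 14.8% of all genes. Both counts are near the background.

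**Figure D5:**
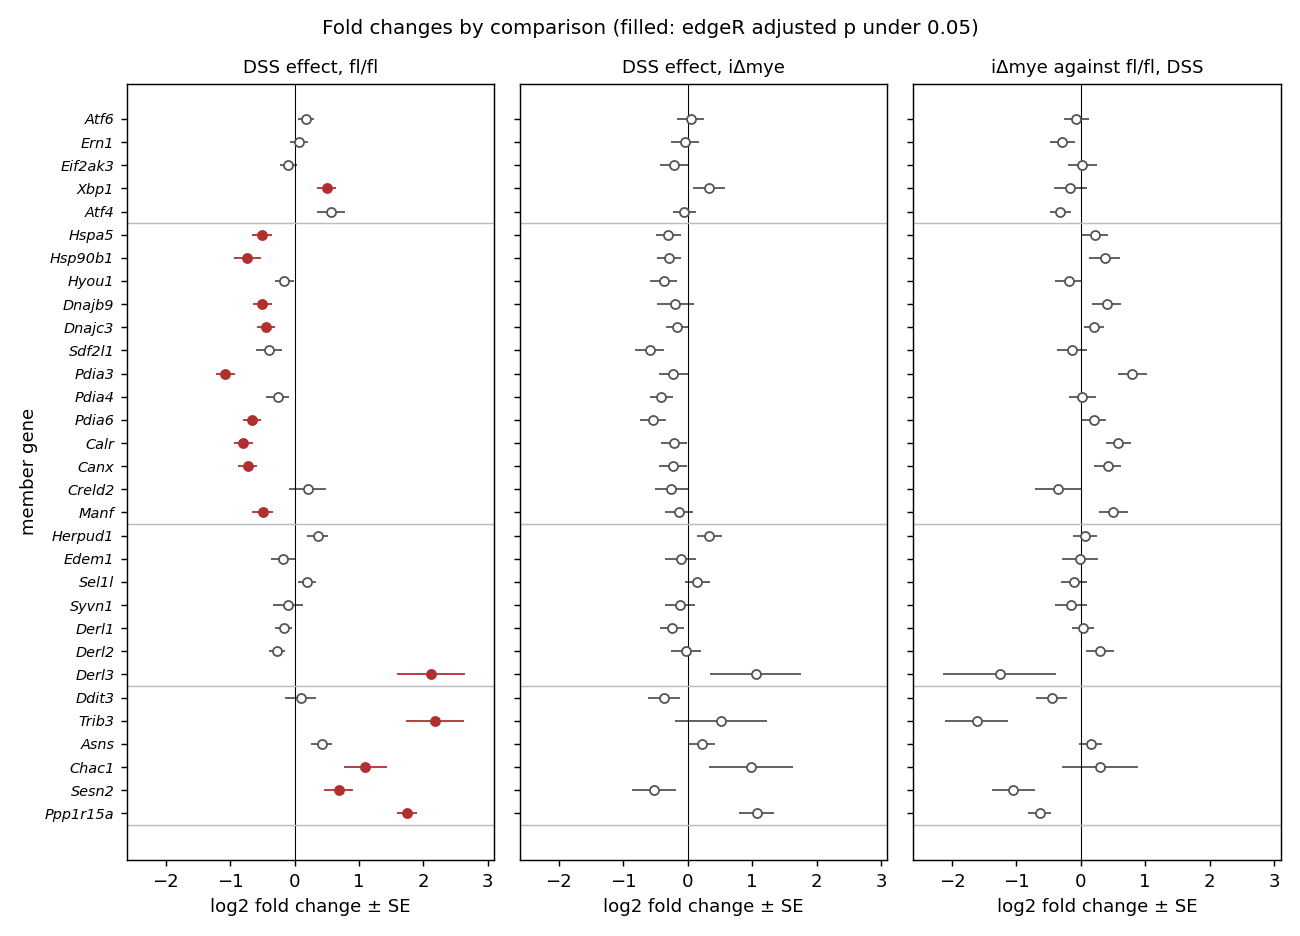
Log2 fold change ± SE of the 31 members for colitic against untreated Tmem173fl/fl (left), colitic against untreated Tmem173iΔmye (middle) and colitic Tmem173iΔmye against colitic Tmem173fl/fl mice (right); red filled points passed an edgeR adjusted p under 0.05 and open points did not. The 15 filled points are all in the left panel, and Pdia3, at -1.07 there, is at 0.80 in the right panel.

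The difference between the 2 DSS effects was tested as an interaction over all 12 libraries. edgeR called 0 of 31 members against 2.65% of all genes, with 4 members at an unadjusted p under 0.05, beside 4361 of 24102 genes. limma called 0 and DESeq2 2, Pdia3 and Calr, against 6.99% of all genes by DESeq2, so that 2 of 31 is near the background. All 6 ATF4 targets had a negative interaction and 9 of 13 chaperones a positive one, beside 12551 positive values among all 24102 genes. Chac1, at -0.05 ± 0.78, was positive in some alternatives (up to 0.47). For Pdia3 it was 0.92 ± 0.26 on the log2 scale, with a 95% interval of 0.36 to 1.48 (adjusted p = 0.0782 by edgeR), for Calr 0.66 ± 0.23 (adjusted p = 0.146 by edgeR) and for Sesn2 -1.13 ± 0.43 (adjusted p = 0.188 by edgeR). Leaving out replicate 1 of colitic Tmem173iΔmye mice, the library with the most acinar and plasma cell RNA of its group, gave 5 calls in the interaction (Pdia3, Calr and Canx positive, Sesn2 and Derl3 negative), against 8.22% of all genes in that fit, and 2 between colitic genotypes (Pdia3 higher, Sesn2 lower), against 8.31%.

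Marker sums also differed between the colitic genotypes. In Tmem173fl/fl and Tmem173iΔmye libraries they were 2575 to 4489 and 5028 to 6617 FPKM for epithelium, 575 to 949 and 236 to 331 FPKM for neutrophils, and 1153 to 1458 and 354 to 511 FPKM for fibroblasts. Called were 0 of 9 epithelial, 6 of 10 neutrophil and 5 of 9 fibroblast markers, the last 2 lower in Tmem173iΔmye. Goblet cell markers summed to 2005 to 3764 and 5538 to 5722 FPKM, with 1 of 10 called higher, macrophage markers to 739 to 991 and 475 to 627 FPKM, with 1 of 10 called lower, and 3 of 9 colonocyte markers were called higher. All 10 plasma cell markers, Xbp1 and Derl3 included, had a negative log2 fold change, with a median of -0.77 and 1 called, Sdc1 (-1.30, adjusted p = 0.0215 by edgeR). The chaperones summed to 764 to 900 and 957 to 1141 FPKM, and the ATF4 targets to 45.3 to 46.7 and 33.7 to 40.0 FPKM. The part of these cell types in the members' differences was not tested.

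Other genes of the pathway in colitic Tmem173fl/fl mice were read from lists written with earlier results of these data known, beside 35.4% of all genes called (19.5% higher, 16% lower). Of 20 further ER folding genes 4 fell (20%) and 1 rose, and the falls included Pdia5, a disulfide isomerase (-1.10), and Uggt1, the glucosyltransferase that returns glycoproteins to Calr and Canx (-0.73). Of 18 further ERAD genes 4 fell (22.2%) and 1 rose, with the ubiquitin ligase Rnf5 at -0.95 and the conjugating enzyme Ube2g2 at 0.40, whose call was lost in 11 of 16 alternatives. The share called was 25% and 27.8% in these lists, below that of all genes, and the shares of falls lay near the background. Of 23 translocation and transport genes 7 fell (30.4%) and none rose, among them Sec61b of the translocon (-0.73) and Sec23b of the COPII coat (-0.90). Of 18 further ER stress regulators 5 rose and 5 fell (27.8% each). The falls there included the goblet cell genes Agr2 (-1.68) and Creb3l1 (-1.32) and the intestinal IRE1 paralog Ern2 (-0.91), and the rises Creb3l3 (2.31) and Creb3l2 (1.30). Each value is a log2 fold change with an edgeR adjusted p under 0.05.

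The ISR kinases and the eIF2 machinery only fell where called, in 4 of 10 genes (40%), among them Eif2ak2 (the kinase PKR, -1.50) and Eif2b1 (-0.96). Of 27 tested further ATF4 targets 9 rose (33.3%) and 5 fell (18.5%). Slc7a11, the cystine transporter, rose by 3.48 and Ddit4, an mTORC1 inhibitor, by 2.45, while Atf3 fell by 1.95 and Cth, which makes cysteine, fell by 1.85 on the log2 scale. Outside the ER, 5 of 7 mitochondrial chaperones and proteases fell and none rose, with Hspd1 at -1.32 and Hspe1 at -1.17. Of 11 cytosolic heat shock genes 4 fell and 1 rose, with Hsp90aa1 at -1.21 and Hspb1 at 2.47. In colitic against untreated Tmem173iΔmye mice edgeR called Casp12 (1.34), 1 of 18 ER stress regulators, and Cth (-1.41), 1 of 27 further ATF4 targets. The other lists had no call, and 2.17% of all genes were called. Casp12 and Cth were named after their values were seen, and their calls were lost in 8 and 7 of 16 alternatives, among them the omission of any 1 untreated library. Pdia5, Creb3l1 and Slc7a11 were called there with no filter, by DESeq2, in one fit of all libraries and with the replicate block.

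Between the colitic genotypes 3 of the 27 further ATF4 targets (11.1%) were called, against 3.11% of all genes. Ddit4 averaged 180.4 ± 28.7 CPM in the Tmem173fl/fl group (SD, n = 3) against 49.6 ± 8.16 CPM (SD, n = 3), a log2 fold change of -1.87 ± 0.21 (adjusted p = 0.00899 by edgeR). Atf5 was at 44.8 ± 2.41 and 20.7 ± 4.52 CPM (-1.12 ± 0.21, adjusted p = 0.0317 by edgeR). Atf3 went the other way, at 15.6 ± 4.08 and 48.4 ± 20.4 CPM (1.63 ± 0.35, adjusted p = 0.0456 by edgeR). Of the 11 cytosolic heat shock genes Hspb1 alone was called, at 202 ± 47.5 and 74.9 ± 3.18 CPM (-1.44 ± 0.21, adjusted p = 0.0181 by edgeR). Without the libraries that hold acinar enzymes, which leaves 1 against 2, none of these 4 kept its call, as 0% of all genes were called there (log2 fold change -2.07 for Ddit4, -1.30 for Atf5, 2.12 for Atf3 and -1.62 for Hspb1), and without replicate 2 of colitic Tmem173iΔmye mice none did either. Atf3 lost its call in 11 of 16 alternatives, Atf5 in 8, Hspb1 in 5 and Ddit4 in 3.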

How the data were processed

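The authors deposited 1 table of whole-number counts per gene and FPKM for the 12 colon libraries, with gene identifiers, positions and lengths on GRCm38. Per the labels, reads were processed with CASAVA 1.8, fastp, HISAT2 2.0.5 and featureCounts 1.5.0-p3, and the deposited FPKM divide counts by gene length and library size. The authors' columns of fold changes, p-values and group means (DESeq2 1.20.0) were not used. Groups came from the sample titles. The p-values set a difference between groups against the spread between libraries, which may be partly technical.

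Counts of genes that reached 0.1 FPKM in 3 or more libraries were tested with edgeR 4.0.16 (R 4.3.3, TMM, quasi-likelihood, Benjamini-Hochberg over 24102 genes), only the groups compared entering a fit, and called at an adjusted p under 0.05. An added threshold on the absolute log2 fold change, of 1, was an alternative, as were DESeq2 1.42.0 and limma 3.58.1 on log2(FPKM + 0.1). SE is the log2 fold change divided by the square root of F. The members and lists were chosen with earlier results of these data known. All members were named, and of other lists the 2 strongest called rises and falls (for DSS in Tmem173fl/fl mice and between colitic genotypes) at a mean FPKM of at least 1; Ern2 and Agr2 were named as intestinal partners, and Casp12, Cth in Tmem173iΔmye mice and Nupr1 were named after their values were seen. The edgeR fit was tested on simulated data.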

Additional observations from a re-analysis of the deposited data

Results flagged for a closer look

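The effect of DSS differed between the genotypes by the interaction test for 4 genes of the further lists and for 0 of the 31 members. Of all genes tested 2.65% were called. The 4 were 3 of 27 further ATF4 targets and 1 of 11 cytosolic heat shock genes, and no other further list had a call. Taken over all further lists, these calls are near the background. On the log2 scale the interaction was -2.32 for Ddit4 (edgeR adjusted p = 0.0059), -1.31 for Atf5 (edgeR adjusted p = 0.0208) and -1.37 for Nupr1 (edgeR adjusted p = 0.0376), all ATF4 targets, and -1.77 for Hspb1, a cytosolic heat shock gene (edgeR adjusted p = 0.0059). The log2 fold changes with DSS in Tmem173fl/fl and Tmem173iΔmye mice were 2.45 and 0.05 for Ddit4, 1.82 and 0.43 for Atf5, 1.497 and 0.05 for Nupr1, and 2.47 and 0.63 for Hspb1. Without DSS Nupr1 averaged 50.5 ± 8.38 CPM in Tmem173fl/fl mice and, in the other genotype, 100.1 ± 13.4 CPM (SD, n = 3 each), which edgeR did not call in the filtered table (adjusted p = 0.635). It was called with no filter (edgeR adjusted p = 0.000152), by DESeq2 (adjusted p = 0.000535) and with the replicate block (edgeR adjusted p = 0.00123). Without the 5 libraries that hold acinar enzymes none of the 4 interactions, and 0% of all genes, was called, with values of -2.59 for Ddit4, -2.04 for Hspb1, -1.56 for Atf5 and -1.62 for Nupr1, and over all alternatives they ran from -2.59 to -2.07, -2.04 to -1.68, -1.56 to -1.19 and -1.62 to -1.12. Of 21 alternatives these calls were lost in 1 for Ddit4, 1 for Hspb1, 4 for Atf5 and 10 for Nupr1.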

How the results depend on the processing

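No called member changed direction in any alternative. For DSS in Tmem173fl/fl mice 15 members were called, 1 sensor and 1 degradation gene higher, 9 chaperones lower and 4 ATF4 targets higher. With library totals alone, which move the median log2 fold change of all genes from 0.03 to 0.17 and that of the degradation genes from -0.10 to 0.05, these were, in the same directions, 2 sensors, 2 degradation genes and 4 chaperones, and the chaperone median was -0.36. No filter on low values gave 2 sensors, the added one being Atf4. With library totals alone 13 members and 34.9% of all genes were called, and with no filter 16 members and 28.7%. limma on log2(FPKM + 0.1) called 9 members, with 0 sensors and 0 degradation genes, against 31.5% of all genes. limma on log2(FPKM + 1) called 13 members, with 0 degradation genes, against 33.4% of all genes. The fold threshold left 5 members, with 0 sensors and 1 chaperone, against 22.5% of all genes. With all libraries in one fit 11 members and 32% of all genes were called. One fit of all libraries gave 0 sensors and 2 ATF4 targets, and leaving out the libraries with acinar enzymes, an alternative chosen after seeing the data, 0 sensors and 0 degradation genes higher (Syvn1 was newly lower) and 2 ATF4 targets higher, of which Asns was newly called. For DSS in Tmem173iΔmye mice, no filter, DESeq2 and one fit of all libraries each called 1 member, Ppp1r15a (3.8%, 6.04% and 5.53% of all genes). Between colitic genotypes DESeq2 called 5 members (9.87% of all genes) and one fit of all libraries 3, Pdia3, Calr and Sesn2 (9.48% of all genes), and in the interaction DESeq2 called 2 (6.99% of all genes). Among the genes called, library totals alone moved the share that was higher from 30.7% to 20.1% between colitic genotypes. In the interaction that share of the called genes moved from 37.3% to 21.9%.

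Same-numbered libraries did not deviate together (correlations of -0.12 to 0.13), so the numbers do not pair them. With the replicate block 10 of 31 members were called for DSS in Tmem173fl/fl mice, with 2 ATF4 targets higher, against 30.9% of all genes. In Tmem173iΔmye mice 1 member was called with it, against 7.03% of all genes. Leaving out 1 library at a time gave 8 to 14 members for DSS in Tmem173fl/fl mice (0 to 2 sensors, 4 to 9 chaperones, 0 to 1 degradation genes, 2 to 4 ATF4 targets), 0 to 1 in Tmem173iΔmye mice, 0 to 0 without DSS, 0 to 2 between colitic genotypes and 0 to 5 in the interaction. In the same order, the shares of all genes called in these fits were 27.4% to 34.4%, 0.212% to 7.23%, 0% to 0.0249%, 0.112% to 8.31% and 1.11% to 8.22%. The causes of these differences were not tested. With 3 libraries per group and Trib3 and Chac1 near 1 CPM, small changes of low members were not detectable.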
